A study of Homo sapiens
Mus musculus with 16 samples.

Results

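The genes described here are 7 genes of the host's Hoxc cluster, Hoxc4, Hoxc5, Hoxc6, Hoxc8, Hoxc9, Hoxc10 and Hoxc11, in xenografts of a human bladder tumour line. They were taken by symbol from the mouse expression table, which listed 23337 genes. All 7 passed the filter on low values, as did 17484 genes in all. ScaBER, an established human cell line from a squamous carcinoma of the bladder, had been grown in athymic nude mice of the stock Hsd:Athymic Nude-Foxn1nu, and every group carried the Foxn1nu mutation, which leaves the host without a normal thymus. The 4 groups, of 4 libraries each, had received vehicle (0.5% methylcellulose with 0.1% Tween80), 40 mg/kg Nintedanib, 25 mg/kg Alpelisib (BYL719), or the combination of both for 14 days. Nintedanib blocks receptor kinases of the VEGF, PDGF and FGF families, while alpelisib blocks the alpha catalytic subunit of PI3K. The labels used here give neither the age of the mice nor the site of the tumours, and all tumours came from 1 cell line, although the labels name the source as PDX.

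Hox genes encode homeodomain transcription factors and lie in 4 clusters, Hoxa, Hoxb, Hoxc and Hoxd, in which the order of the genes along the chromosome follows the order of their expression domains from head to tail. Adult fibroblasts and other mesenchymal cells keep much of the Hox pattern of the body site they came from, and Polycomb and Trithorax proteins maintain it. Hox proteins bind DNA together with TALE cofactors of the Pbx and Meis families, and retinoic acid regulates the genes at the 3′ end of a cluster in the embryo.

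Tissue RNA was read from the 3′ ends of transcripts, and each library was mapped once to the human and once to the mouse genome. Between 3606008 and 6850491 mouse reads were counted per library, beside 8303617 to 18568119 human reads. Mouse reads made up 19.3 to 24.1% of a vehicle library, 22.3 to 34% of a nintedanib library, 20.7 to 28.9% of an alpelisib library and 20.5 to 31.5% of a combination library. The normalized value of a gene, used throughout, is its whole reads divided by 1 size factor per library. Host fibroblast transcripts were abundant in every library, with none of 12 fibroblast markers at 0 in any library. The summed value of the 12, mostly from Col1a1, Col1a2 and Col3a1, was between 155100 and 367300. Cdh19 (Schwann cells), Dsg4 (hair) and Pax7 (muscle satellite cells) were at 0 in 12, 9 and 9 libraries. Skeletal muscle transcripts stood apart in 2 libraries: the summed value of 10 markers was 178800 in nintedanib 4 and 102200 in combination 1, against 68.6 to 23920 in the others. In these bulk samples fewer cells of a type and less RNA per cell cannot be told apart.

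Hoxc9 was the member that differed most between the groups, with a mean value of 497 in vehicle tumours and lower means in all 3 drug groups. Hoxc6 and Hoxc8, its neighbours on the 3′ side, had lower means in every drug group, with overlapping libraries. Hoxc10, its neighbour on the 5′ side, had its highest mean under nintedanib alone and its lowest under the combination. Hoxc4 and Hoxc5 had similar means in the 4 groups, and Hoxc11 was close to the detection limit. The 7 genes were chosen by symbol after treatment differences of the mouse table were known, Hoxc9 among them, so all their treatment differences are descriptions of these libraries, and the tests printed with them support nothing.

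**Figure D1:**
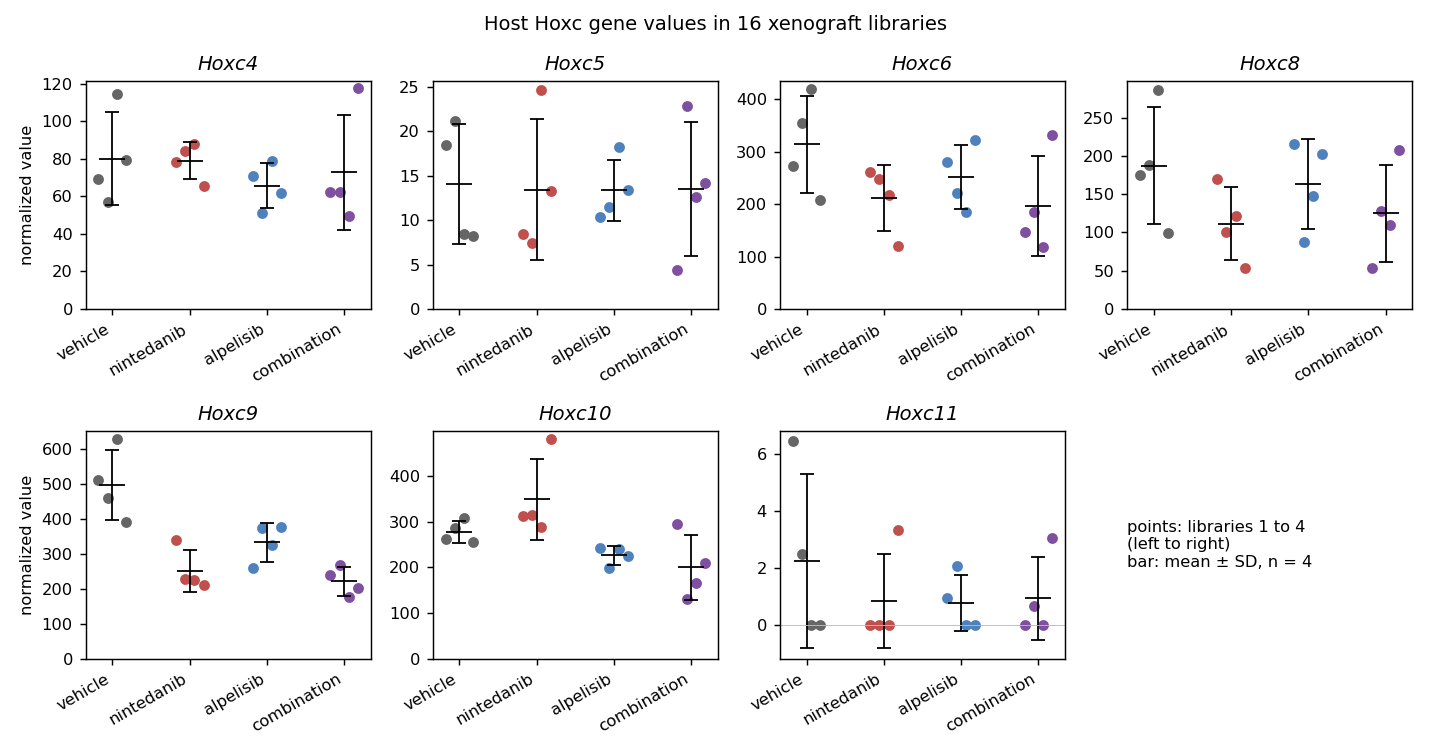
Normalized value (y axis) of each of the 7 host Hoxc genes in the 16 libraries, by treatment group (x axis), with libraries 1 to 4 from left to right and bars for the mean ± SD (n = 4). The vehicle libraries of Hoxc9, between 390.3 and 629, lie above every library of the drug groups.

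Hoxc9, which takes part in patterning the thoracic body and its motor neurons, had values of 509.9, 459, 629 and 390.3 in vehicle libraries 1 to 4. It had 339.5, 227, 224 and 210.1 under nintedanib, 258, 373, 325 and 377 under alpelisib, and 240.3, 268, 175 and 202 under the combination. These values rest on 153 to 553 reads per library. No library of any drug group reached the lowest vehicle library, while the 3 drug groups overlapped each other. The means were 497 ± 100.6 in vehicle, 333 ± 55.5 under alpelisib, 250.1 ± 60.1 under nintedanib and 222 ± 41.1 under the combination (SD, n = 4 each). In that order, the neighbours alpelisib and nintedanib overlapped, and so did nintedanib and the combination.

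In a limma fit over all genes, with differences on the log2(value + 1) scale, Hoxc9 was lower in the combination than in vehicle by a log2 difference of -1.16 (SE 0.21, adjusted p = 0.0409), a ratio of 0.448 with a 95% interval of the log2 difference from -1.59 to -0.731. Against vehicle, nintedanib alone gave -0.99 (SE 0.21, adjusted p = 0.265) and alpelisib alone -0.57 (SE 0.21, adjusted p = 1). The nintedanib effect averaged over the absence and the presence of alpelisib was -0.79 (SE 0.15, adjusted p = 0.0371), from 8 libraries with nintedanib and 8 without. The interaction between the drugs was 0.40 (SE 0.29, adjusted p = 1), with a 95% interval from -0.202 to 1.01. The difference between combination and nintedanib alone was -0.17 and that between combination and alpelisib alone -0.59, with adjusted p-values of 0.992 and 0.725.

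The combination call for Hoxc9 was lost when any 1 of 9 libraries was left out: vehicle 1, 2, 3 or 4 (adjusted p = 0.134, 0.0796, 0.186 and 0.0909), nintedanib 2 or 3 (0.0615 and 0.0611), alpelisib 4 (0.0531), or combination 3 or 4 (0.193 and 0.0616). The averaged call was lost without any 1 of 8: vehicle 1 or 3 (adjusted p = 0.0777 and 0.0931), nintedanib 2, 3 or 4 (0.102, 0.0988 and 0.051), alpelisib 2 or 4 (0.106 and 0.096), or combination 3 (0.131). The log2 difference kept its sign throughout, between -1.27 and -1.04 for the combination and between -0.87 and -0.73 for the average. The adjusted p from edgeR was 0.0552 for the combination and 0.0587 for the average, and that from DESeq2 was 0.000238 and 0.000582. Scaling to the sum of human and mouse reads put the median of all genes at 0.32 in place of 0.03 in combination against vehicle and gave Hoxc9 -0.83 (adjusted p = 0.315). For the average it put the median at 0.12 in place of 0.02 and gave Hoxc9 -0.68 (adjusted p = 0.317). With only the vehicle and combination libraries in the fit, the adjusted p was 0.25. Limma without a variance trend gave adjusted p-values of 0.179 for the combination and 0.159 for the average.

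Hoxc6, which is expressed in the thoracic region and the upper limb and has been studied in the mammary gland, had values of 273, 355, 419 and 209 in vehicle libraries 1 to 4. Under nintedanib it had 262, 247, 217 and 121, under alpelisib 279.5, 220.4, 185 and 322, and under the combination 147, 185, 118 and 332. The groups overlapped, since vehicle 4 was below several treated libraries and combination 4 was above vehicle 1 and 4. Its means were 314 ± 92.0 in vehicle, 252 ± 61.1 under alpelisib, 212 ± 63.6 under nintedanib and 196 ± 95.2 under the combination (SD, n = 4 each). Each neighbouring pair in that order overlapped. The averaged nintedanib effect was -0.51 (SE 0.22, adjusted p = 0.517), and the combination differed from vehicle by -0.74 (SE 0.31, adjusted p = 0.575).

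Hoxc8, a patterning gene of the thoracic region, had values of 175, 188, 286 and 99.6 in vehicle libraries 1 to 4. Under nintedanib it had 169.8, 100.6, 122 and 54.2, under alpelisib 215, 87.3, 147 and 202, and under the combination 53.2, 128.0, 110.1 and 208. The lowest library was in the combination group and the highest in vehicle, and all groups overlapped. Its means were 187 ± 76.6 in vehicle, 163 ± 58.4 under alpelisib, 125 ± 63.9 under the combination and 112 ± 48.0 under nintedanib (SD, n = 4 each). The averaged nintedanib effect was -0.61 (SE 0.29, adjusted p = 0.565), with a 95% interval from -1.21 to -0.00571.

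Hoxc10, a gene of the lumbar region and hind limb that is also expressed in subcutaneous fat of the lower body, had values of 262, 286, 308 and 255 in vehicle libraries 1 to 4. Under nintedanib it had 312, 315, 288 and 481, under alpelisib 243, 198, 241 and 225, and under the combination 294, 129.9, 166 and 209.8. All 4 alpelisib libraries lay below all 4 vehicle libraries, while nintedanib 4 was the highest of the 16. The group means were 278 ± 24.0 in vehicle, 349 ± 88.8 under nintedanib, 226.5 ± 20.9 under alpelisib and 199.9 ± 70.5 under the combination (SD, n = 4 each). The combination differed from nintedanib alone by -0.84 (SE 0.22, adjusted p = 0.939) and from vehicle by -0.53 (SE 0.22, adjusted p = 0.575). The averaged nintedanib effect was 0.03 (SE 0.16), with a 95% interval from -0.295 to 0.357. Without nintedanib 4, nintedanib alone against vehicle gave 0.14 in place of 0.30.

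Hoxc4, at the 3′ end of the cluster and known for its part in antibody gene diversification in B cells, had values of 69.2, 57.2, 115 and 79.2 in vehicle libraries 1 to 4. Under nintedanib it had 78.4, 84.0, 87.9 and 65.2, under alpelisib 70.8, 50.9, 78.9 and 61.9, and under the combination 62.1, 62.0, 49.3 and 118. The highest vehicle and the highest combination library stood well above the rest of their groups. Its averaged nintedanib effect was 0.05 (SE 0.20), with a 95% interval from -0.368 to 0.471.

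Hoxc5 had 6 to 35 reads per library, and its means were 14.1 ± 6.72 in vehicle, 13.4 ± 7.90 under nintedanib, 13.3 ± 3.46 under alpelisib and 13.5 ± 7.55 under the combination (SD, n = 4 each). The averaged effect was -0.11 (SE 0.38), with a 95% interval from -0.902 to 0.673. Hoxc11, a gene of the hind limb and the tail region, had 0 to 7 reads per library and was at 0 in 9 of the 16. Its averaged effect was -0.30 (SE 0.51), with an interval from -1.37 to 0.763. Of the cluster's other genes, Hoxc12 had 1 read in 1 library, and Hoxc13, which is required for hair formation, had values from 0.653 to 20.3 in 15 libraries and 78.4 in alpelisib 1. That library also had the highest summed value of 12 skin epithelium and hair markers, 12120 against 1286 to 4417 in the others.

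By limma, 1 of the 7 genes, Hoxc9, passed the threshold of an adjusted p of 0.05 in combination against vehicle, where the share over all 17484 genes was 0.0515%. In the averaged nintedanib effect the count was likewise 1 of 7, and the share over all genes was 0.0972%. In nintedanib against vehicle, alpelisib against vehicle, combination against nintedanib, combination against alpelisib and the interaction, 0 of 7 passed by limma and by edgeR, and the share over all genes by limma was 0% in each. DESeq2 called Hoxc9 in nintedanib against vehicle, where it called 29 of all 17484 genes, and no member in the other 4. It called 1 gene in alpelisib against vehicle and 29 in combination against alpelisib. An unadjusted p under 0.05 by limma with a lower value was found for 1, 1, 1, 1 and 0 members in the 5 comparisons, in the order first given, against 2.97%, 1.25%, 2.42%, 2.99% and 1.5% of all genes. It was found for 3 members (Hoxc6, Hoxc9 and Hoxc10) in combination against vehicle, against 3.39% of all genes, and for 3 (Hoxc6, Hoxc8 and Hoxc9) in the average, against 4.4%. Groups that did not overlap, with the treated group lower, were found for Hoxc9 in nintedanib against vehicle (1.74% of all genes), for Hoxc9 and Hoxc10 in alpelisib against vehicle (0.955%), and for Hoxc9 in combination against vehicle (1.84%). These 3 comparisons share the vehicle libraries.

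**Figure D2:**
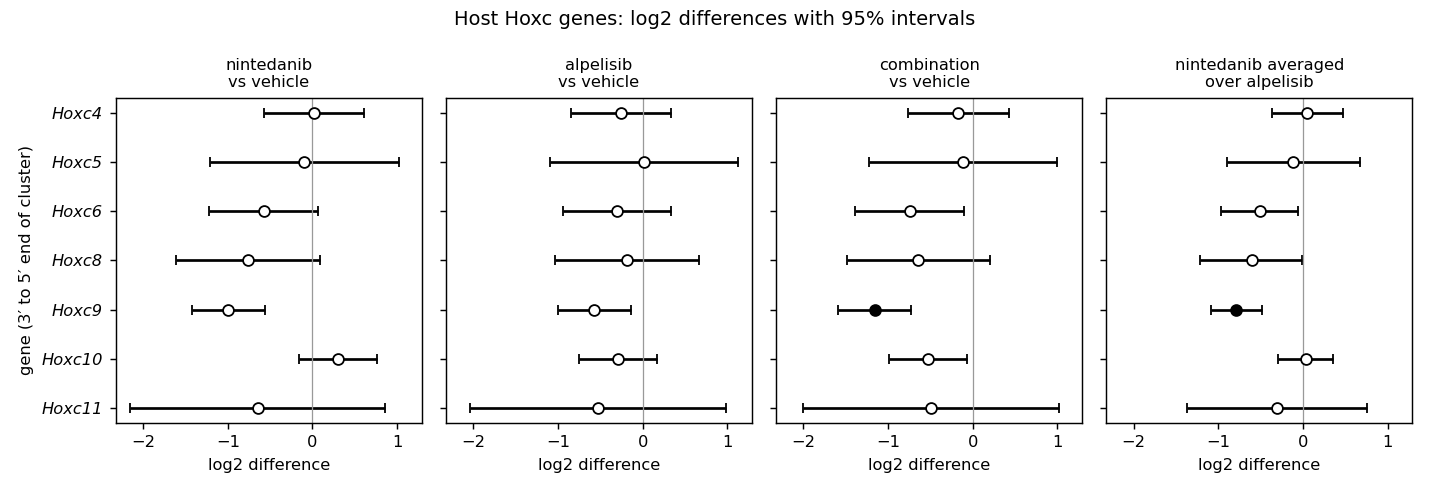
Log2 differences (x axis) of the 7 host Hoxc genes, in cluster order from 3′ to 5′ (y axis), in 4 comparisons, with bars for 95% intervals from limma and filled points for an adjusted p under 0.05. Hoxc9 has the filled points, at -1.16 in combination against vehicle and -0.79 in the averaged nintedanib effect.

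The median log2 difference of the 7 genes was -0.58 for nintedanib, -0.29 for alpelisib and -0.53 for the combination, each against vehicle, beside medians of 0.02, 0.01 and 0.03 over all genes. It was -0.30 for the averaged nintedanib effect, beside 0.02. Below 0 were 5, 6, 7 and 5 of the 7 genes in these 4 comparisons, where the shares over all genes were 47.9%, 48.3%, 46.9% and 47.5%. Under scaling to human plus mouse reads, Hoxc4 and Hoxc5 changed sign in combination against vehicle, to 0.15 and 0.17, and 5 of 7 genes were below 0 there, with a median of -0.32. Over the 14 other settings of the fit that tested all 7 genes, the median ran from -0.62 to -0.33 for nintedanib, from -0.49 to -0.06 for alpelisib, from -0.65 to -0.29 for the combination and from -0.51 to -0.18 for the average. With so few genes the median moved with single libraries. For nintedanib it was -0.07 without vehicle 1 and -0.33 without nintedanib 4. For alpelisib it was -0.17 without vehicle 3 and -0.45 without vehicle 4. For the combination it was -0.88 without vehicle 4, -0.29 without combination 1 and -0.93 without combination 4. For the average it was -0.03 without vehicle 1, -0.20 without vehicle 2, -0.50 without vehicle 4, -0.14 without alpelisib 2, -0.19 without combination 1 or combination 3, and -0.53 without combination 4.

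Summed over the 7 genes, the value was 1372 ± 298 in vehicle, 1016 ± 104 under nintedanib, 1054 ± 112 under alpelisib and 829 ± 189 under the combination (SD, n = 4 each). Hoxc9 made up 33.5 to 38.8% of that sum in the vehicle libraries and 22.2 to 29% in the nintedanib libraries, with no overlap. Its share was 23.9 to 39.6% under alpelisib and 18.6 to 33.7% under the combination. The log2 ratio of Hoxc9 to Hoxc10, a comparison within each library that no scaling can move, was 0.96, 0.68, 1.03 and 0.61 in vehicle libraries 1 to 4 and 0.12, -0.47, -0.36 and -1.19 in nintedanib libraries 1 to 4. It was 0.09, 0.91, 0.43 and 0.74 under alpelisib and -0.29, 1.04, 0.08 and -0.06 under the combination. The vehicle and nintedanib groups did not overlap in this ratio, while combination 2 was as high as the vehicle libraries. Hoxc9 had a lower mean and Hoxc10 a higher mean under nintedanib than in vehicle, both known beforehand, so this separation supports nothing. How often other gene pairs, or other genes' shares of a sum, separate these groups was not counted.

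The ratio of Hoxc10 to Hoxc6 was highest in the 2 muscle-rich libraries. Its log2 value was 1.99 in nintedanib 4 and 0.99 in combination 1, and between -0.66 and 0.49 in the other 14. The part of muscle in the Hoxc10 values was not tested. For Hoxc9, leaving both libraries out gave -1.21 (adjusted p = 0.035) in combination against vehicle and -0.78 (adjusted p = 0.0378) for the average. With the scores of muscle, adipocyte and skin markers as covariates it gave -1.10 (adjusted p = 0.0254) and -0.73 (adjusted p = 0.0924), so that the averaged call was lost.

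**Figure D3:**
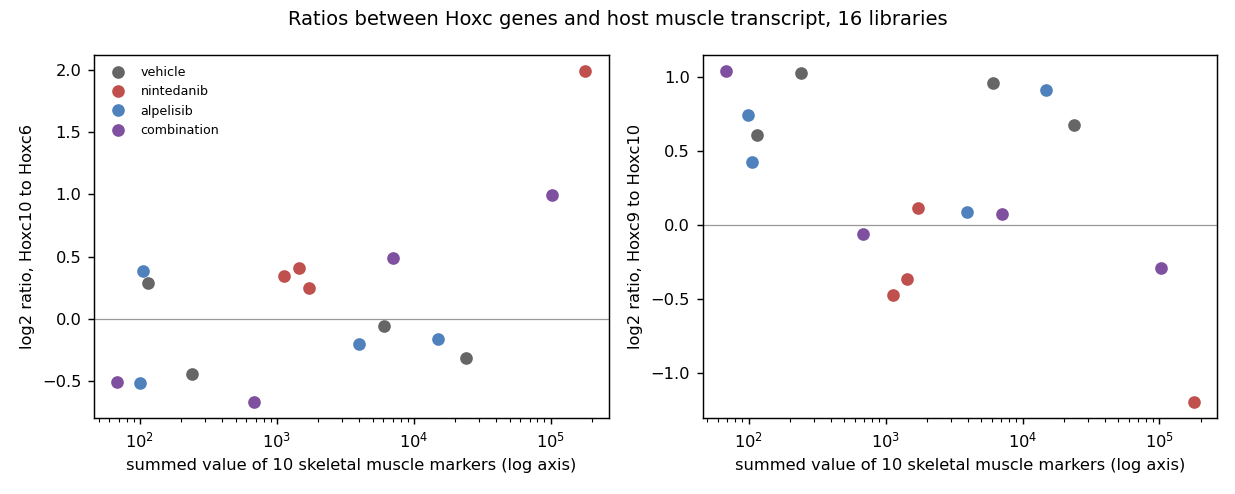
Log2 ratio of Hoxc10 to Hoxc6 (left y axis) and of Hoxc9 to Hoxc10 (right y axis) against the summed value of 10 skeletal muscle markers on a log axis, 1 point per library, coloured by group. The library with the most muscle transcript, nintedanib 4, has the highest Hoxc10 to Hoxc6 ratio (1.99) and the lowest Hoxc9 to Hoxc10 ratio (-1.19).

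Across the 16 libraries, Hoxc6 and Hoxc8 varied most alike of the 21 pairs of members, with a Pearson r of 0.83 over log2 values and 0.80 after the group means were removed. Hoxc9 was nearest to Hoxc6 (0.635, and 0.39 within groups) and then to Hoxc8 (0.494, and 0.259 within groups). Hoxc10 had values of -0.223 with Hoxc8, 0.0358 with Hoxc6 and 0.109 with Hoxc9. These are descriptions of libraries that share their depth and scaling between genes. Among 8737 other genes of at least median expression, those most like the mean standardised log2 value of the 7 were Dpf1 (r = 0.827), Dot1l, which encodes a histone H3 methyltransferase (0.816), Rrbp1 (0.814), 9830001H06Rik (0.808), Mtch2 (0.805), Ppp2r5d (0.802), Zfp9 (0.794) and Elavl2 (0.792). The most unlike were Emr1, the older symbol of the macrophage marker Adgre1 (r = -0.883), Pdcd2l (-0.857), Dscr3 (-0.845) and Slc16a10 (-0.835), over the same 16 libraries. These genes are the extremes of 8737, and no chance level was computed. The mean gives Hoxc5 and Hoxc11, which had few reads, the same weight as Hoxc9, whose own most alike genes were others. With the macrophage score as a covariate, chosen after seeing the data, Hoxc9 gave -1.27 (adjusted p = 0.0143) in the combination and -0.85 (adjusted p = 0.0116) in the average.

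The tumour cells transcribe the same cluster, so the human table of the same libraries gives a readout that did not choose the members. Human HOXC9 had values of 396, 382, 349 and 383 in vehicle libraries 1 to 4, and 316, 397, 286 and 323 under nintedanib. It had 359, 260.1, 405.0 and 416 under alpelisib, and 343, 402, 425 and 344 under the combination. All groups overlapped. The means were 378 ± 20.2 in vehicle, 331 ± 47.1 under nintedanib, 360.0 ± 71.0 under alpelisib and 379 ± 41.2 under the combination (SD, n = 4 each). The log2 difference of human HOXC9 between combination and vehicle was -0.0011 (SE 0.18, adjusted p = 1), with a 95% interval from -0.367 to 0.365, and the averaged nintedanib effect was -0.06 (SE 0.12), with an interval from -0.314 to 0.203. The difference of mouse Hoxc9 in the same comparisons was -1.16 and -0.79, or -0.83 and -0.68 under scaling to human plus mouse reads. Mouse Hoxc9 was chosen with its differences known, and the human and mouse tables have separate size factors. These values therefore do not compare the species, and the difference between species was not tested.

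By limma, 0 of the 9 human HOXC genes tested, of 10 listed, passed the threshold in combination against vehicle or in the averaged effect, where the share over all 17663 human genes tested was 0% in both. The 9 include HOXC13 and the long noncoding RNA HOTAIR. By DESeq2, 13 and 153 human genes passed in these comparisons. An unadjusted p under 0.05 was found for 0 of the 9 in both, against 8.16% and 14.2% of all human genes. The median averaged effect over the 9 was -0.03, beside 0.03 over all human genes. HOXC6 had a human mean of 242 ± 34.9 in vehicle and 218 ± 39.2 under the combination, and its averaged effect was -0.10 (SE 0.19, interval -0.490 to 0.299). HOXC8 gave -0.03 (SE 0.20, interval -0.441 to 0.375), and HOXC10 gave 0.07 (SE 0.18, interval -0.300 to 0.436).

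Human and mouse Hox genes are alike in sequence, and each genome was mapped on its own, so a read of one species could be counted in the other. Over the 16 libraries, mouse and human values of the same gene were compared for 7 pairs, with permutation p-values adjusted over the 7. Hoxc9 and HOXC9 had a Pearson r of 0.0409 (p = 0.881, adjusted 0.889) and a Spearman rho of 0.0647 (p = 0.815, adjusted 0.815), and r was 0.0479 without the 2 libraries farthest from the human median. Hoxc6 and HOXC6 had an r of 0.534 (p = 0.0341, adjusted 0.119), a rho of 0.676 (p = 0.00507, adjusted 0.0355) and an r of 0.666 without the 2 farthest. Hoxc10 and HOXC10 had an r of 0.66 (p = 0.00865, adjusted 0.0606) and a rho of 0.438 (p = 0.0915, adjusted 0.214). That r was 0.504 without the 2 farthest, combination 4 and nintedanib 4. Hoxc8 and HOXC8 had an r of 0.408 (p = 0.117, adjusted 0.273) and a rho of 0.482 (p = 0.0599, adjusted 0.21), with r 0.523 without the 2 farthest. For Hoxc4, Hoxc5 and Hoxc11 the r was 0.345, 0.038 and 0.176 (adjusted permutation p = 0.334, 0.889 and 0.72) and the rho 0.188, 0.0676 and 0.188 (adjusted 0.679, 0.815 and 0.679). Their r without the 2 farthest was 0.385, -0.128 and 0.353. Over 12707 symbol pairs tested in both tables the median r was 0.245 and 23.3% were above 0.5, so that such values were common in these libraries. Those pairs were mapped in the same way, so they give no baseline free of reads counted in both species.

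The lowest ratio of mouse to human reads bounds how many human reads a mouse value can hold, if they entered at 1 rate in all libraries. For Hoxc9 the lowest ratio was 0.389, in combination 4. At that rate, human reads would make up at most 34.6% of its vehicle mean and 36.2 of the difference of 276 between vehicle and combination means. For Hoxc6 the bound was 66.3% of the vehicle mean and 49.7 of a difference of 118, and for Hoxc8 45.7% and 7.22 of 62.4. For Hoxc10 it was 86.5% of the vehicle mean and 84.3, which is more than its whole difference of 77.8. For Hoxc4 it was 75.5% and 10.7, against a difference of 7.29. The share of reads that did cross between species was not tested.

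**Figure D4:**
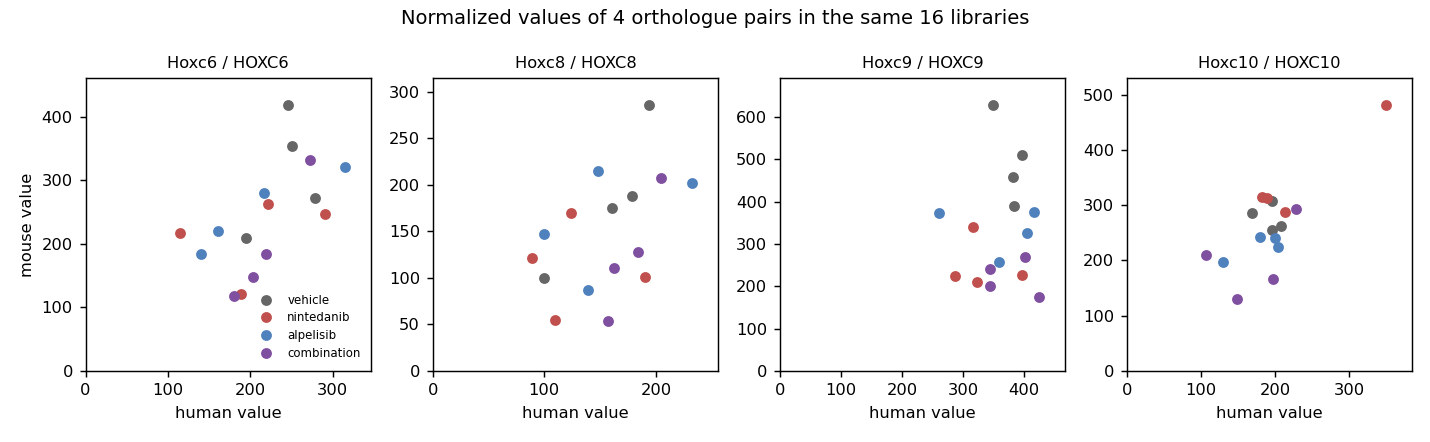
Normalized mouse value (y axis) against the normalized human value (x axis) of 4 gene pairs, 1 point per library, coloured by group. For Hoxc9 the vehicle libraries lie highest on the mouse axis, between 390.3 and 629, at human values of 349 to 396, while for Hoxc10 nintedanib 4 is highest in both species (481 in mouse and 350.0 in human).

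The other 3 Hox clusters list 30 coding genes in the mouse table, of which 26 were tested. Of these, 0 passed the threshold for the averaged nintedanib effect by limma (0.0972% of all genes did). Of the 26, 16 were below 0, where the share over all genes was 47.5%, with a median of -0.16 (0.02 over all genes). An unadjusted p under 0.05 by limma was found for 5 of the 26, all lower, against 4.4% of all genes. In the Hoxb cluster 7 of 9 genes were below 0, with a median of -0.47. Hoxb5 gave -0.91 (SE 0.38, adjusted p = 0.505), Hoxb4 -0.47, Hoxb3 -0.50 and Hoxb2 -0.59. In the Hoxa cluster 6 of 9 were below 0 (5 under scaling to human plus mouse reads), with a median of -0.11. There Hoxa7 gave -0.52, Hoxa5 -0.66 and Hoxa4 0.83. In the Hoxd cluster 3 of 8 were below 0, with a median of 0.05. Hoxd4 gave -1.01 (SE 0.36, adjusted p = 0.397), Hoxd12 0.62, Hoxd10 -0.41 and Hoxd3 -0.46.

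The values behind the lowest of these were small for some genes. Hoxd4 had 50.3 ± 20.9 in vehicle, 18.25 ± 7.14 under nintedanib, 34.6 ± 21.4 under alpelisib and 19.6 ± 9.94 under the combination (SD, n = 4 each). Hoxa5, which is expressed in mesenchyme of the lung and the trunk, had 228 ± 59.2, 118 ± 34.5, 148 ± 63.7 and 129.8 ± 90.9 in the same order. Among the other genes of paralogue group 9, Hoxa9, Hoxb9 and Hoxd9, none passed the threshold, and whether Hoxc9 differs from them was not tested.

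**Figure D5:**
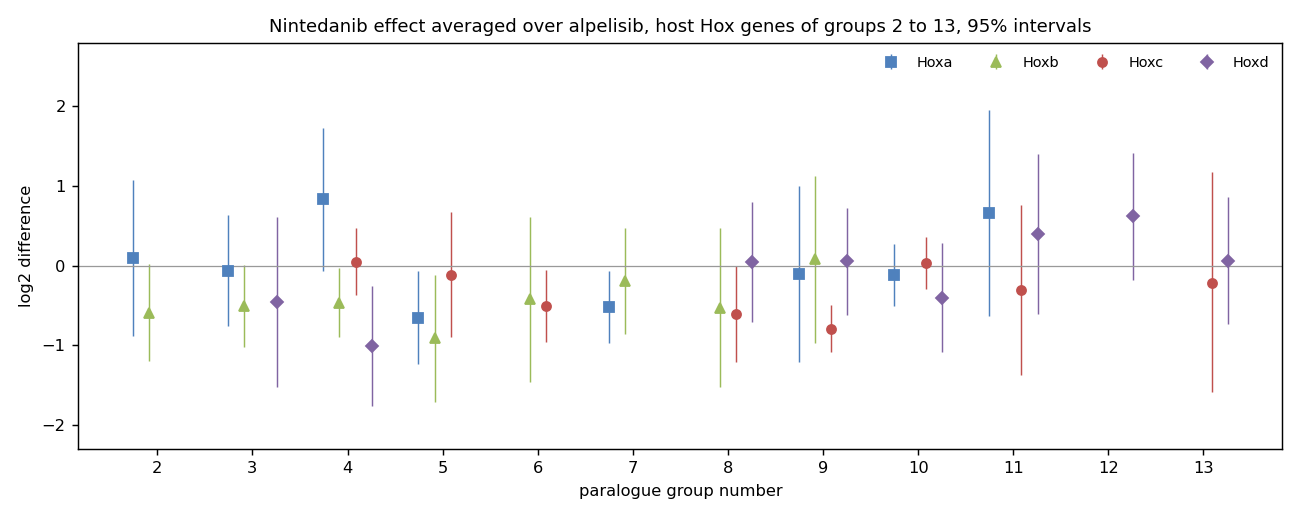
Averaged nintedanib effect (log2 difference, y axis) of the host Hox genes tested in paralogue groups 2 to 13, by paralogue group number (x axis) and cluster (colour and shape), with 95% intervals from limma as bars. Hoxc9 (-0.79) has an interval from -1.09 to -0.489, and Hoxd4 (-1.01) and Hoxb5 (-0.91) lie lower with wider intervals.

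Genes that act with Hox proteins or regulate their clusters did not pass the threshold in the averaged effect, where 0.0972% of all genes did. Over all genes, 47.5% were below 0 in this effect and 4.4% were lower with an unadjusted p under 0.05 by limma. All 11 TALE cofactors were tested, with 5 below 0 and 1, Meis3 (-0.54, SE 0.25), at an unadjusted p under 0.05. Pbx2 gave -0.32 and Pknox1 0.28. Of 19 Polycomb and Trithorax genes tested, 8 were below 0, and Jarid2, an accessory subunit of the repressive complex PRC2, gave 0.51 (SE 0.15, adjusted p = 0.226), followed by Bmi1 (0.35) and Phc2 (-0.24). Of 18 genes of the retinoic acid pathway, 8 were below 0. The receptor Rarb gave 1.42 (SE 0.53, adjusted p = 0.416) and the receptor Rara -0.29. Of 26 other position and limb mesenchyme factors, 15 were below 0, and En1 gave -0.45, Six2 1.59 and Msx2 -1.55, each with an adjusted p of at least 0.397. Lower with an unadjusted p under 0.05 by limma were 0 of 19 Polycomb and Trithorax genes, 2 of 18 retinoic acid genes and 4 of 26 position factors. Higher at that p was 1 gene in each of these lists. In either direction 8.8% of all genes had such a p. Under scaling to human plus mouse reads, the counts below 0 were 4 of 11, 4 of 19, 4 of 18 and 12 of 26, again with 0 past the threshold. The median of all genes was 0.12 under that scaling.

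Markers of host cell types were read beside the Hoxc genes in the same libraries. For the counts of each list, 47.5% of all genes were below 0 in the averaged nintedanib effect and 46.9% in combination against vehicle. Of 12 fibroblast markers 3 were below 0 in the averaged nintedanib effect, with a median of 0.19, and Dcn gave 0.77, Mfap5 0.62 and Pdgfra 0.41. Their summed value was 187100 to 325200 in vehicle, 175100 to 367300 under nintedanib, 155100 to 276600 under alpelisib and 155700 to 236200 under the combination. Collagen made up most of that sum, with median values of 122500 for Col1a1, 69540 for Col1a2 and 39990 for Col3a1, and at most 3511 for any other marker. In combination against vehicle 8 of 12 markers were above 0, while the median sum was 201000 in the combination and 293800 in vehicle. With the fibroblast score as a covariate, Hoxc9 gave -1.17 (adjusted p = 0.0349) in the combination and -0.82 (adjusted p = 0.0399) in the average.

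All 10 endothelial markers were below 0 in the averaged effect (47.5% of all genes were), with a median of -0.67, and under scaling to human plus mouse reads as well. By limma 2 of the 10 passed the threshold, where the share over all genes was 0.0972%. They were Esam (-0.82, adjusted p = 0.0343) and Cdh5, the vascular cadherin (-0.91, adjusted p = 0.0479), and Egfl7 gave -0.81. Both calls were lost under human plus mouse scaling (adjusted p = 0.366 and 0.337), in limma without trend (0.159 and 0.178) and by edgeR (0.0587 and 0.0671). Over fits that each left out 1 library the adjusted p ran from 0.0158 to 0.123 for Esam and from 0.00738 to 0.138 for Cdh5. The summed value was 3480 to 4468 in vehicle, 1804 to 4053 under nintedanib, 3407 to 4465 under alpelisib and 1959 to 3075 under the combination. With the endothelial score as a covariate, chosen after seeing the data, Hoxc9 gave -1.27 (SE 0.27, adjusted p = 0.0839) in the combination and -0.90 (SE 0.21, adjusted p = 0.122) in the average. Both calls were lost. The score was itself lower with nintedanib, since all 10 of its markers were below 0, so this fit cannot separate the score from the treatment.

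Of 10 pericyte and smooth muscle markers 9 were below 0 in the averaged effect (8 under scaling to human plus mouse reads), with a median of -0.35, and Myh11 gave -0.65, Actg2 -0.69 and Pdgfrb, a kinase that nintedanib inhibits, -0.35. Of 12 skin epithelium and hair markers 10 were below 0 in the averaged effect (9 under that scaling), with a median of -0.19 and Krt14 at -0.67. Against vehicle, 4 of the 12 were below 0 under nintedanib, with a median of 0.21, and 5 of 12 under the combination, with a median of 0.19. In combination against alpelisib all 12 were below 0, with a median of -1.10, and the summed value was highest in alpelisib 1 (12120). Of 7 dermal papilla markers 3 were below 0 in the averaged effect (2 under that scaling), with a median of 0.05, and Bmp4 was at -1.24 (SE 0.32, adjusted p = 0.178), Sox2 at -0.61 and Ptch1 at 0.74. All 8 adipocyte markers were below 0 in the averaged effect, with a median of -1.40, while 3 of 8 were below 0 in combination against vehicle, with a median of 0.10. Their summed value was 21750 in vehicle 1 and 352 to 968 in the other vehicle libraries, 407 to 834 under nintedanib, 602 to 13140 under alpelisib and 520.0 to 4546 under the combination. All 10 skeletal muscle markers were above 0, with a median of 1.55, and nintedanib 4 and combination 1 held by far the highest sums (178800 and 102200). The median library had a summed value of 3170 in vehicle, 1585 under nintedanib, 2028 under alpelisib and 3879 under the combination. All 8 lymphocyte markers were above 0, with a median of 0.75 and Cd3e at 2.36, and 5 of 8 macrophage markers were above 0 (7 under that scaling), with Mrc1 at 0.52. Of 6 Schwann cell markers 4 were below 0 (3 under that scaling), with Ncam1 at -0.45 and Sox10 at -1.66. None of the lists in this paragraph had a member past the threshold, and their part in the Hoxc values was not tested beyond the fits with covariates given above.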

How the data were processed

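The members and gene lists were chosen with earlier results of these data known. Reads had been mapped to hg19 and mm10 with TopHat, per the submitters' processing notes. The counting tool, annotation and scaling were not given in the sources used here. The deposited tables hold signal, a normalized value per gene and library: the authors had scaled whole reads with a single factor in each library, and 100% of values were whole multiples of 1 step within 0.01 read. A gene was tested if 4 or more libraries had a value of 1 or more. Differences were tested 2-sided with limma 3.58.1 (R 4.3.3; lmFit, eBayes with trend) on log2(value + 1), with 1 mean for each of 4 groups over all 16 libraries, and adjusted by Benjamini-Hochberg over all genes of the species. The fold of low genes is understated on this scale. Intervals are 95% intervals of the fit. Correlations between species used 100000 permutations.

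Genes were named by rule: the members, the human HOXC genes, up to 4 genes per other Hox cluster and 3 per list by smallest p for the averaged nintedanib effect, and the 8 most and 4 least alike genes. Some of the genes this rule picks are not reported here. Endothelial and macrophage score covariates, Hoxc13 values and named Hox genes of paralogue group 9 were added after values were seen. Older symbols were matched for Adgre1 (Emr1), Jchain (Igj) and Kmt2a (Mll1).

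On recovered reads, edgeR 4.0.16 called 7 mouse genes in combination against vehicle (limma 9) and 12 in the average (limma 17), and DESeq2 1.42.0 called 82 and 158. The limma step was tested on simulated data for combination against vehicle (17195 mouse genes): 36 of 100 genes moved by log2 1 and 88 of 100 moved by log2 2 were recovered. Nothing in the labels says that libraries came from separate animals, so a p-value here measures only the spread among these samples, which may be technical. Hoxc5 and Hoxc11 had the fewest reads of the members. No reference sequence or mouse annotation was used here.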

Additional observations from a re-analysis of the deposited data

Results flagged for a closer look

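In 60 sets of 4 libraries (1 gene in 1 group), 6 held a library whose gap to the nearest of the others was, as a share of the set's range, above the 95% critical value of Dixon's test, where chance flags about 1 in 20. Mouse Hoxc9 was 339.5 in nintedanib 1, against 210.1 to 227 in the other 3. Mouse Hoxc10 was 481.1 in nintedanib 4, against 288.3 to 314.6. Mouse Hoxc11 was 3.318 in nintedanib 4, from 3 reads, and 0 in the other 3. Mouse Hoxc13 was 78.39 in alpelisib 1, against 2.6 to 5.199. Human HOXC4 was 79.55 in combination 3, against 88.91 to 90.06. Human HOXC5 was 21.88 in nintedanib 4, against 7.637 to 9.568. Of these 6, 3 are from nintedanib 4, the library with the fewest human reads and the most muscle transcript, and their causes were not tested.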

How the results depend on the processing

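Hoxc9 stayed below 0 in all 15 alternatives other than left-out libraries for nintedanib, alpelisib and combination against vehicle and for the average, between -1.27 and -0.83 for the combination (9 of 15 past the threshold) and between -0.90 and -0.68 for the average (9 of 15).

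The number of mouse genes past the threshold in combination against vehicle (9, of which 8 lower) was 1 (0 lower) with human plus mouse scaling, 0 with only the groups compared, 24 without the 2 muscle-rich libraries, 19 with muscle, adipocyte and skin scores, 16, 5 and 15 with the fibroblast, endothelial and macrophage scores, 0 without trend, 15 with values of at least 10, and 82 by DESeq2. For the average (17, of which 12 lower) it was 3 (0 lower) with human plus mouse scaling, 54 without the muscle-rich libraries, 4 without trend and 158 by DESeq2. For nintedanib against vehicle (0) it was 1 with only the groups compared, 3 without the muscle-rich libraries, 3 with the muscle, adipocyte and skin scores, 1 with the endothelial score and 29 by DESeq2. It was 1 by DESeq2 for alpelisib against vehicle (0). For combination against alpelisib (0) it was 1 without the muscle-rich libraries, 1 with the 3 scores and 29 by DESeq2, and for the interaction (0) 2 with the 3 scores. Human counts (0 for combination against vehicle and 0 for the average) were 13 and 153 by DESeq2.

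Members past the threshold were 0 in place of 1 for the combination with human plus mouse scaling, only the groups compared, no trend, the endothelial score and edgeR, and for the average with human plus mouse scaling, the 3 scores, the endothelial score, no trend and edgeR. DESeq2 gave 1 in place of 0 for nintedanib. The causes were not tested.

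Little sign of pairing by replicate number was seen. Of 24 same-numbered pairs of mouse libraries, 3 had deviations correlated above 0.1. The median r was -0.0137 for these pairs and -0.00319 for pairs with other numbers. In the mouse values 1 of 16 libraries was most like one with its own number, and in the human values 4 of 16. With the number as a replicate block, 3 mouse genes and 0 members passed for the combination and 0 members for the average (Hoxc9 adjusted p = 0.1 and 0.103).

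Leaving out 1 library gave 0 to 3 mouse genes for nintedanib, 0 to 16 for the combination, 0 to 1 for combination against alpelisib and 9 to 31 for the average, 0 to 1 members for the combination and for the average, and 0 to 11 human genes for the average. The members' median ran from -0.757 to -0.0733 for nintedanib, -0.454 to -0.171 for alpelisib, -0.933 to -0.289 for the combination, -0.286 to -0.0282 for combination against nintedanib, -0.434 to -0.104 for combination against alpelisib, -0.122 to 0.358 for the interaction and -0.526 to -0.0338 for the average. Hoxc11 was not tested at values of at least 10, so no median is given there.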
